A study of Mus musculus with 15 samples.

Results

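Cell cycle and replication genes were examined in liver RNA of 15 C57BL6J males at 9.5 months of age. The 44 genes were listed by symbol as proliferation markers, with earlier results of these data known. All 44 were found among the 54281 genes of the deposited table. They comprise 20 genes of the G1 phase, replication licensing and DNA synthesis and 24 genes of mitosis. Of the 44, 21 were high enough to be tested, and 1 of these, Mki67, passed the test in any comparison. Mki67 was highest in the 3 livers that had both DEN/HFD and MCOPPB. It was high enough for testing mainly through DEN/HFD livers (5, beside 1 chow liver). Its calls were lost under several other settings, among them the first label of RNA integrity as a covariate.

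The animals fell into 4 groups by the labels. DEN/HFD animals had received 25 mg/kg of diethylnitrosamine (DEN), a liver carcinogen, as pups, and then a high-fat diet (HFD, lard, 60% of energy from fat) for 32 weeks. Chow animals had received the vehicle of DEN and stayed on standard diet. In each arm some animals were injected with MCOPPB, a ligand of the nociceptin receptor that the series title names as senolytic, at 5 mg/kg in repeated cycles, and the others with saline. Saline was given to 3 chow and 4 DEN/HFD animals, and MCOPPB to 5 chow and 3 DEN/HFD animals, with 1 liver library each. Carcinogen and diet were always given together, so their parts in any difference cannot be told apart.

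In most tissues a cell that is to divide first loads the replicative helicase onto its origins, a step called licensing, then makes nucleotides and copies its DNA, and then builds a spindle and separates its chromosomes. Genes of the early steps are switched on by E2F factors. Genes of the late steps carry a promoter element called CHR, often beside CCAAT boxes, and are read by a complex of MuvB proteins with B-Myb and FOXM1. Adult hepatocytes are mostly at rest, and in a resting liver transcripts of the late steps are scarce. They are known to return after partial hepatectomy, after toxic injury and in tumours.

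Levels are given as normalized counts, that is, the deposited log2 values turned back to read counts scaled by library size. Estimated depth was 9.32 M to 18.7 M reads per library, and 13863 to 16675 genes lay above the lowest value, which stands for 0 reads. All 7 hepatocyte markers were kept, and the 4 pancreas markers summed to 0 to 12.5 normalized counts. Chow saline 2 had the fewest genes above the lowest value, and DEN/HFD MCOPPB 1 the most, at the smallest depth. DEN/HFD saline 4 stood apart from its group in Col1a1, a collagen of activated stellate cells, at 11.6 normalized counts beside 101 to 340 in the other 3. In several genes below it lay within the chow range. This did not hold for all genes: its Mcm10, at 962, was the highest of all libraries, beside at most 645 in chow. Values without DEN/HFD saline 4 are given where a call changes.

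Every one of the 44 genes lay above the lowest value in at least 1 library, and 17 did in all 15. To be tested, a gene had to reach 22.5 normalized counts in at least 3 libraries. The 21 that did were Mcm2 to Mcm7, Mcm10, Cdt1 and Gmnn (9 of 10 licensing genes), Pcna, Rrm1, Rrm2, Tyms and Tk1 (5 of 5 genes of nucleotide supply and the replication clamp), Ccnd1 and E2f1 (2 of 5 genes of G1 and S phase control), Cdk1 (1 of 6 genes of mitotic entry), Birc5 (1 of 13 spindle and checkpoint genes), Cdca3 (1 of 3 genes of anaphase and exit), and Mki67 and Top2a (2 of 2 chromosome genes). So 16 of the 20 earlier genes were kept and 5 of the 24 mitotic genes. Of the 21, 16 reached 22.5 in at least 3 chow livers. The other 5, Mki67, Top2a, Birc5, Cdca3 and Cdt1, did so in only 1 or 2 chow livers and were kept through the DEN/HFD livers, so for them the filter itself favours a higher level under DEN/HFD.

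The other 23 genes averaged 1.32 to 8.79 normalized counts, and 17 of them never reached 22.5. They were Cdc6, which loads the helicase, the cyclins Ccne1, Ccne2, Ccna2, Ccnb1 and Ccnb2, the mitotic regulators Foxm1, Plk1 and Aurka, the checkpoint and spindle genes Bub1, Bub1b, Cenpe, Cenpf, Aurkb, Cdca8, Tpx2, Nusap1, Kif11, Hmmr, Prc1 and Kif20a, and Cdc20 and Ube2c of the anaphase machinery. Cdc6 and Bub1 were above the lowest value in 5 libraries each, the fewest.

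The number of the 44 genes above the lowest value was 23 to 32 per library in chow saline, 34 to 39 in chow MCOPPB, 37 to 42 in DEN/HFD saline and 40 to 42 in DEN/HFD MCOPPB. The difference lay mostly in the mitotic genes, of which 6 to 15 of 24 were above the lowest value in chow saline and 22 to 23 in DEN/HFD MCOPPB. The low end was chow saline 2, which also had the fewest genes of any kind. Over all genes, 13863 to 15785 lay above the lowest value in chow saline and 15117 to 16057 in chow MCOPPB. DEN/HFD saline had 15394 to 16099 and DEN/HFD MCOPPB 14937 to 16675. A value above the lowest could lie under 1 read, as for Bub1 in chow MCOPPB 4 (0.401 normalized counts, beside an estimated 0.852 for 1 read). DEN/HFD MCOPPB 1 had 42 of the 44 genes above the lowest value at the smallest depth, 9.32 M reads.

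**Figure D1:**
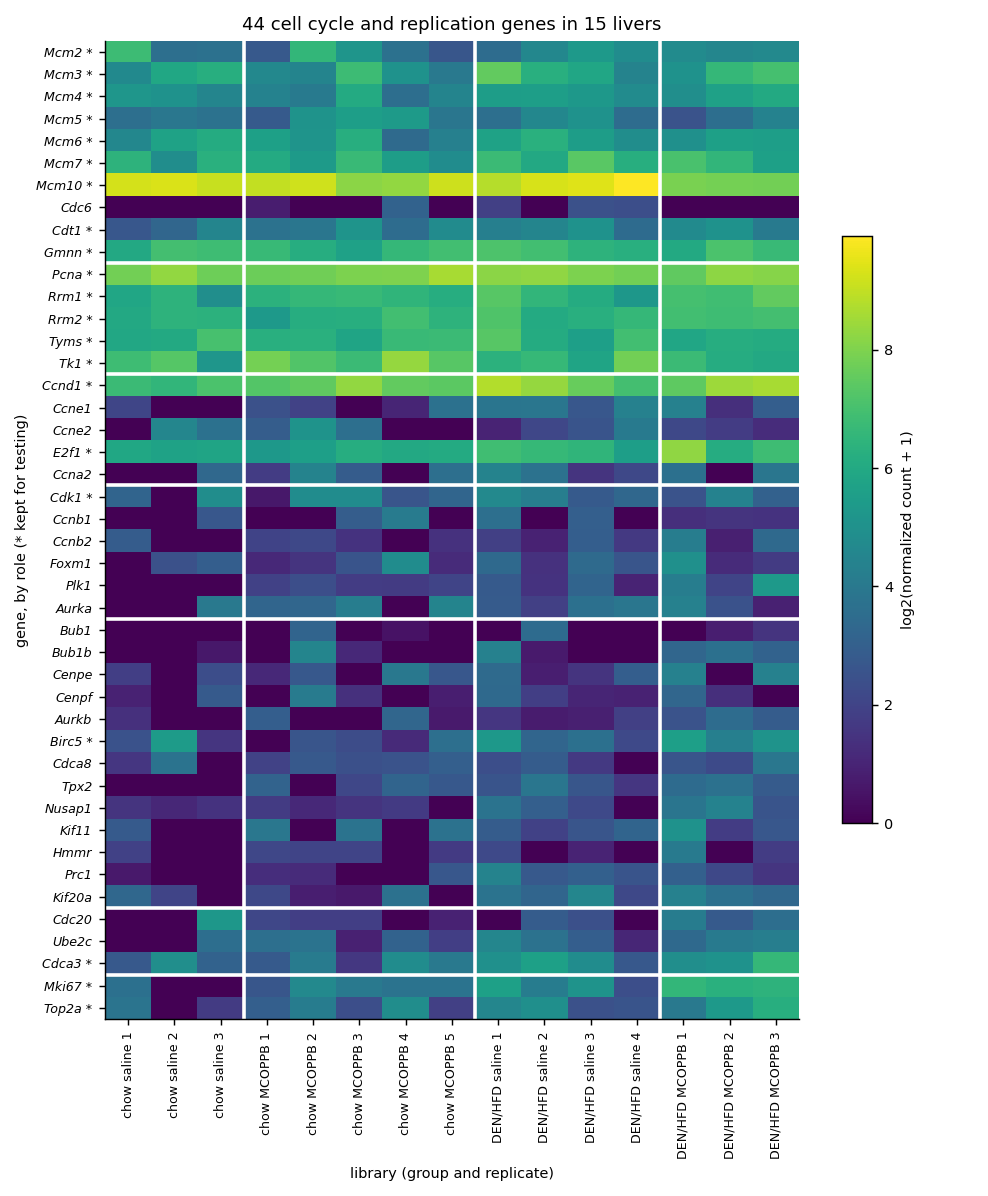
Level of each gene (rows, grouped by role between white lines; * kept for testing) in each library (columns, groups between white lines), as log2(normalized count + 1). The upper rows, apart from Cdc6, Ccne1, Ccne2 and Ccna2, are mostly bright in all groups, while many mitotic rows are dark in chow saline and brighter in DEN/HFD MCOPPB.

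What the promoters share was read from RefSeq sequences (GRCm38.p6), which held 37 promoters of 35 of the 44 genes. The window runs from 250 bases before to 50 bases after the start of the gene, and both strands were searched. The CHR element (TTTGAA or TTCGAA) was found in 17 of 21 promoters of mitotic genes (81.0%) and in 2 of 16 of the earlier genes (12.5%), beside 19.2% of all 32851 promoters in the table. CCAAT was found in 19 of 21 mitotic promoters (90.5%) and 10 of 16 of the others (62.5%), beside 37.4% of all. The E2F letters (TTTCCCGC, TTTCGCGC, TTTGCCGC or TTTGGCGC) were found in 1 of 21 mitotic promoters (4.76%) and 6 of 16 of the others (37.5%), beside 2.26% of all. These are matches of letters, and no binding was measured here.

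The 250 bases before the start are shown for 3 mitotic genes and 2 licensing genes whose values follow, since they differ in these elements, with the matches in capitals. On GRCm38.p6, Mki67 is chr7:135716380-135716629 (minus strand), Top2a chr11:99024190-99024439 (minus), Cdk1 chr10:69352913-69353162 (minus), Mcm5 chr8:75109259-75109508 (plus) and Mcm10 chr2:5012792-5013041 (minus).
Mki67: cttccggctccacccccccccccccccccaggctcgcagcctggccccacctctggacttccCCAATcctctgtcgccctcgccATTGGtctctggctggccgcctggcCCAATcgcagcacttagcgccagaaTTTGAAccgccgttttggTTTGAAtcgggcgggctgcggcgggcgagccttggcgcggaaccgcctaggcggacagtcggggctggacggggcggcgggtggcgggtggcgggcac
Top2a: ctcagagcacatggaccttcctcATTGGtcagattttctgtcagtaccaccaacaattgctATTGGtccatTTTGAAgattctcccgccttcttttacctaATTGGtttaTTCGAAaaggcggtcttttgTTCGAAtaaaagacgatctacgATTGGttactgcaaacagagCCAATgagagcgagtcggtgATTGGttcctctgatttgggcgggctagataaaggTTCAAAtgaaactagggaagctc
Cdk1: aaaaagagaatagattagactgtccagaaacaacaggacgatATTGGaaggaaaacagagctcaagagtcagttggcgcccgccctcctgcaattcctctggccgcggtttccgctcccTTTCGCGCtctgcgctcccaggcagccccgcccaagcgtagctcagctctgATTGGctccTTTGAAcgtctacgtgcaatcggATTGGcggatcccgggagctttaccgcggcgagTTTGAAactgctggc
Mcm5: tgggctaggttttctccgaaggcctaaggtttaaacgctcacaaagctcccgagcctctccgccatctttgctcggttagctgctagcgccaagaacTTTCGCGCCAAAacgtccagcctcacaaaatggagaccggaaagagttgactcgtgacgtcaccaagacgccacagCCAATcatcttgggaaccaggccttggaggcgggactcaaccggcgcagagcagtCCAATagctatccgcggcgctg
Mcm10: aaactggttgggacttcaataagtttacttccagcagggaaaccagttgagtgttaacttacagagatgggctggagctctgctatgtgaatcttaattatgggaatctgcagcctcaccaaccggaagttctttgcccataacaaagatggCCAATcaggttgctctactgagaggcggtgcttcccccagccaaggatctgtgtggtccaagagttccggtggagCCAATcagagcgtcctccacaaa
In these stretches Mki67 had 2 CHR and 3 CCAAT matches, and Top2a had 4 and 6. Cdk1 had 2 and 3 and also 1 E2F match. Mcm5 had no CHR match but 2 CCAAT and 2 overlapping E2F matches. Mcm10 had 2 CCAAT matches and neither of the others.

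Mki67 encodes the proliferation antigen Ki67, a coat protein of mitotic chromosomes that is present in cycling cells and lost in resting ones. The gene (ENSMUSG00000031004.8) lies on the minus strand of chromosome 7 from 135689784 to 135716361 (GRCm38). In chow saline it was at 11.5, 0 and 0 normalized counts, and in chow MCOPPB at 5.23, 24.1, 14.9, 12.8 and 12.7. DEN/HFD saline livers had 49.2, 17.1, 32.7 and 4.20, and DEN/HFD MCOPPB livers 92.4, 77.5 and 84.2. All 3 DEN/HFD MCOPPB livers lay above the other 12, while the DEN/HFD saline livers overlapped with both chow groups, and DEN/HFD saline 4 was below all but 2 chow saline livers.

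Mki67 was the only one of the 44 genes that passed the test. Between DEN/HFD and chow in MCOPPB animals it rose from 13.9 ± 6.76 (SD, n = 5) to 84.7 ± 7.50 (n = 3), 6.08-fold. On the variance-stabilised log2 scale, which shrinks differences at low counts, this was 1.08 ± 0.23 (SE, limma adjusted p = 0.0370). limma called 0.571% of the 11568 genes tested in this comparison, and 1 of the 21 genes kept here. The effect of DEN/HFD common to both treatments was 0.92 ± 0.16 for Mki67 (limma adjusted p = 0.0177), in a fit that called 1.32% of genes, and again 1 of 21 here. In a library of whole liver, more cycling cells and more RNA per cycling cell cannot be told apart.

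The other contrasts of Mki67 were positive and did not pass. DEN/HFD against chow with saline gave 0.75 ± 0.24 (limma adjusted p = 0.260). MCOPPB against saline gave 0.86 ± 0.24 under DEN/HFD (25.8 ± 19.5 to 84.7 ± 7.50, 3.28-fold, limma adjusted p = 0.512) and 0.53 ± 0.23 on chow (limma adjusted p = 0.505). The difference between both MCOPPB effects was 0.33 ± 0.33 (limma adjusted p = 0.888), and the MCOPPB effect common to both diets 0.69 ± 0.16 (limma adjusted p = 0.0948). The common MCOPPB effect passed without chow saline 1 (0.82, limma adjusted p = 0.0309).

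The call of Mki67 for DEN/HFD with MCOPPB stood close to the threshold. Mki67 passed the filter through 5 DEN/HFD livers and 1 chow liver, and with no filter its limma adjusted p was 0.0817. Leaving out any 1 of the 15 libraries left a difference of 1.01 to 1.14 and an adjusted p of 0.0153 to 0.189, above 0.05 without each of the 3 DEN/HFD MCOPPB livers, without chow MCOPPB 1, 3, 4 or 5, and without DEN/HFD saline 2. For the common effect of DEN/HFD the adjusted p was 0.00159 without DEN/HFD saline 4 and 0.0703 without DEN/HFD MCOPPB 3, and it stayed under 0.05 without each of the other libraries. RNA integrity (RIN) differed between the groups: by the first of 2 RIN labels, chow MCOPPB had 9.9 to 10 and DEN/HFD MCOPPB 8.7 to 9.2. With this RIN as a covariate, Mki67 was at 0.91 (limma adjusted p = 0.353) for DEN/HFD with MCOPPB and 0.73 (limma adjusted p = 0.482) for the common effect, and RIN and group cannot be told apart here.

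**Figure D2:**
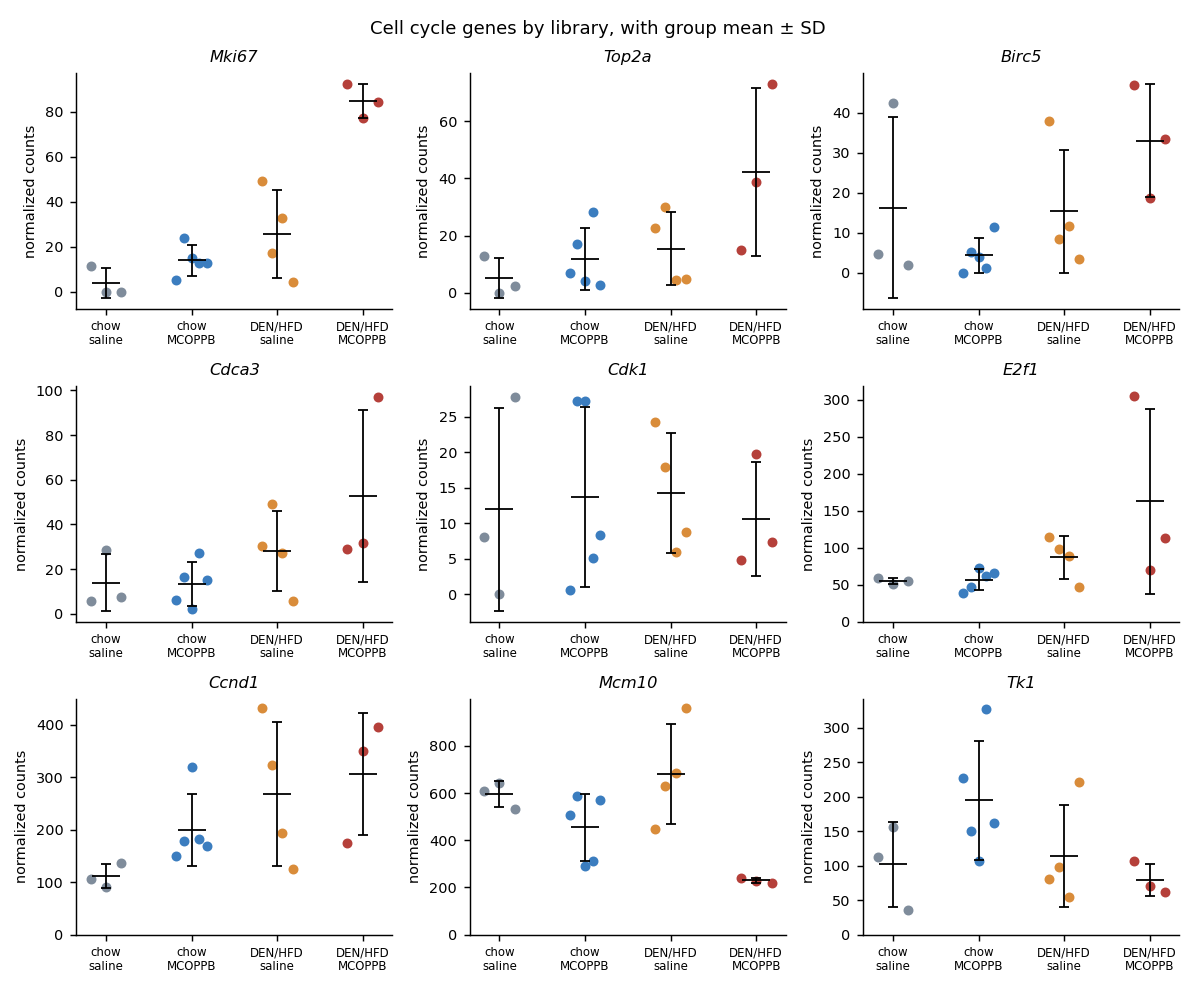
Normalized counts of 9 genes per library (points) in the 4 groups, with the group mean and SD (black), on linear axes. Mki67 in DEN/HFD MCOPPB (77.5 to 92.4) lies above every other liver, and Mcm10 there (220 to 241) lies below every other liver.

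Top2a encodes topoisomerase II alpha, which untangles sister chromatids. It was at 13.0, 0 and 2.32 normalized counts in chow saline, 6.93, 17.0, 4.16, 28.4 and 2.68 in chow MCOPPB, 22.5, 29.9, 4.46 and 4.98 in DEN/HFD saline, and 14.9, 38.9 and 73.0 in DEN/HFD MCOPPB. The highest 3 values were all from DEN/HFD livers, but the groups overlapped. Its difference was 0.61 ± 0.26 for DEN/HFD with MCOPPB (limma adjusted p = 0.326) and 0.51 ± 0.18 for the common effect (limma adjusted p = 0.154), and it did not pass.

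Birc5 encodes survivin, a subunit of the chromosomal passenger complex. Chow saline livers had 4.66, 42.5 and 1.86 normalized counts, chow MCOPPB 0, 5.14, 3.89, 1.26 and 11.4, DEN/HFD saline 38.0, 8.39, 11.7 and 3.51, and DEN/HFD MCOPPB 47.0, 18.6 and 33.5. With MCOPPB the DEN/HFD livers lay above the chow livers, whereas with saline both diets had 1 high liver and the rest low. The difference for DEN/HFD with MCOPPB was 0.81 ± 0.26 (limma adjusted p = 0.196).

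Cdca3, a trigger of mitotic entry that is itself removed at mitotic exit, was at 5.74, 28.6 and 7.61 normalized counts in chow saline and 6.04, 16.3, 2.06, 27.4 and 15.2 in chow MCOPPB. It was at 30.2, 49.2, 27.0 and 5.59 in DEN/HFD saline and 28.9, 31.8 and 97.1 in DEN/HFD MCOPPB. Apart from DEN/HFD saline 4, the DEN/HFD livers were at 27.0 or more, and the highest chow livers at 27.4 and 28.6 just reached them. The difference was 0.70 ± 0.25 for DEN/HFD with MCOPPB (limma adjusted p = 0.260) and 0.51 ± 0.19 for the common effect (limma adjusted p = 0.160).

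Cdk1, the kinase that drives entry into mitosis, did not follow Mki67. It was at 8.13, 0 and 27.8 normalized counts in chow saline, 0.569, 27.2, 27.2, 5.15 and 8.35 in chow MCOPPB, 24.3, 18, 5.98 and 8.86 in DEN/HFD saline, and 4.83, 19.8 and 7.37 in DEN/HFD MCOPPB. High and low livers occurred in every group. Its difference was -0.03 ± 0.26 for DEN/HFD with MCOPPB (limma adjusted p = 0.977) and 0.08 ± 0.19 for the common effect (limma adjusted p = 0.872).

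The mitotic genes under the filter were described and not tested. Plk1, the polo kinase, was at 0 in all 3 chow saline livers, 2.33 to 4.21 in chow MCOPPB, 0.965 to 8.24 in DEN/HFD saline and 3.07 to 40.6 in DEN/HFD MCOPPB. Tpx2, which builds microtubules around chromosomes, was also at 0 in chow saline and reached 0 to 8.05, 1.99 to 13.7 and 6.26 to 12.0 in the other groups in the same order. Nusap1, a spindle microtubule binder, was at 1.16 to 1.82, 0 to 2.34, 0 to 12.7 and 4.93 to 20.2 in the 4 groups. Cdc20, the activator of the anaphase ligase, was at 0, 0 and 36.7 in chow saline, 0 to 3.32 in chow MCOPPB, 0 to 6.33 in DEN/HFD saline and 6.09 to 16.8 in DEN/HFD MCOPPB. Not all mitotic genes under the filter went this way. Ccnb1, Aurka, Bub1 and Cenpf had lower means in DEN/HFD MCOPPB (1.67, 8.30, 0.858 and 3.38) than in chow MCOPPB (4.59, 11.1, 1.73 and 3.72). The others had higher means in DEN/HFD MCOPPB than in chow MCOPPB.

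Summed over the 24 mitotic genes, normalized counts were 76.5, 92.6 and 127 in chow saline and 92.2 to 187 (median 121) in chow MCOPPB. DEN/HFD saline had 329, 207, 186 and 79.0, and DEN/HFD MCOPPB 445, 298 and 458. The DEN/HFD MCOPPB livers were above all 8 chow livers, and the lowest of them was below the highest DEN/HFD saline liver. Without Mki67 the sums were 65.0 to 127, 86.9 to 166, 74.8 to 279 and 220 to 374 in the 4 groups, with the same order of the group means.

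**Figure D3:**
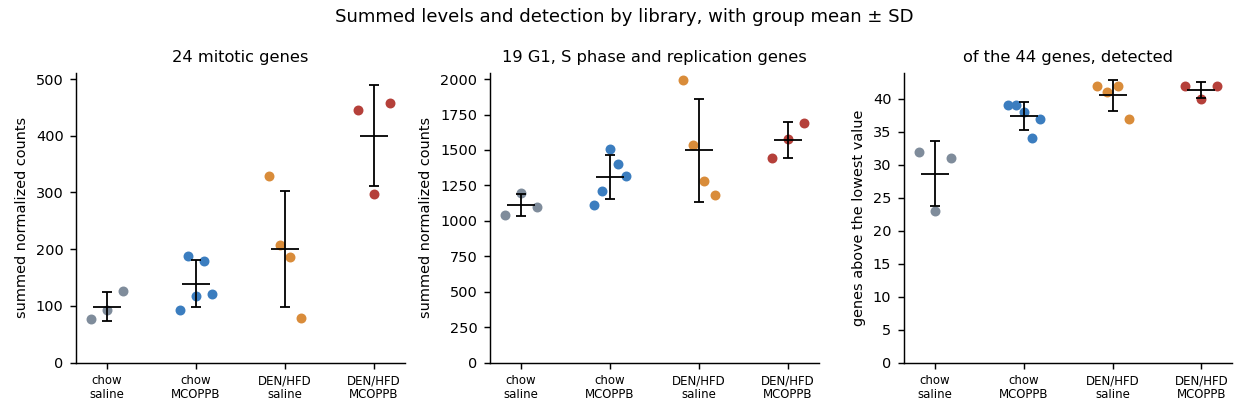
Summed normalized counts of the 24 mitotic genes (left) and of 19 G1, S phase and replication genes without Mcm10 (middle), and the number of the 44 genes above the lowest value (right), per library (points) with group mean and SD. The mitotic sum is 76.5 to 127 in chow saline and 298 to 458 in DEN/HFD MCOPPB; the middle sum is 1043 to 1194 and 1441 to 1692.

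Markers of other liver cells were read beside Mki67. All 10 macrophage and Kupffer cell markers were kept, and their summed normalized counts were 945 to 1119 in chow saline, 1706 to 3106 in chow MCOPPB, 1546 to 3577 in DEN/HFD saline and 2042 to 3599 in DEN/HFD MCOPPB. limma called 2 of the 10, Cd68 and C1qc, higher in the common effect of DEN/HFD, beside 1.32% of all genes. In that effect 8 of the 10 differences were positive and 2 negative. For DEN/HFD with MCOPPB 8 were positive, Marco (-1.36 ± 0.50) and Timd4 (-0.73 ± 0.27) were negative, and none was called. For the common MCOPPB effect all 10 differences were positive and none was called. The 7 stellate cell markers summed to 1071 to 2326, 1019 to 1897, 1157 to 3131 and 1764 to 2295 in the same order, and the 7 monocyte and neutrophil markers, 3 of them kept, to 111 to 422, 294 to 494, 297 to 787 and 523 to 691. The 7 erythroid markers, 5 of them kept, summed to 3712 to 10753, 7421 to 13099, 2739 to 16956 and 3824 to 4677, and all 5 kept had a negative difference for DEN/HFD with MCOPPB, none called. No kept marker of hepatocytes, T or NK cells, B or plasma cells, endothelial cells, cholangiocytes or fat was called in any comparison. No marker of these lists was at 0 in all libraries. Their part in the result for Mki67 was not tested.

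Of the genes of G1 and S phase control, cyclin D1 and E2F1 were kept. Ccnd1, whose product starts the G1 phase in response to growth signals, was at 107, 91.1 and 136 normalized counts in chow saline and 150, 178, 319, 182 and 168 in chow MCOPPB. DEN/HFD saline livers had 432, 323, 194 and 124, and DEN/HFD MCOPPB livers 174, 349 and 396. The chow saline livers were the lowest group, and only DEN/HFD saline 4 fell within their range. The difference was 0.80 ± 0.29 for DEN/HFD with saline (limma adjusted p = 0.305), 0.54 ± 0.28 for MCOPPB on chow (limma adjusted p = 0.604) and 0.62 ± 0.20 for the common effect of DEN/HFD (limma adjusted p = 0.125). The last passed without DEN/HFD saline 4 (0.71, limma adjusted p = 0.0451). Ccnd1 overlaps LTO1 on the other strand, and the strand setting of the counting was not given in the sources used here.

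E2f1, the factor that switches on S phase genes, was at 59.4, 51.3 and 54.6 normalized counts in chow saline, 38.2, 47.1, 71.9, 61.7 and 65.7 in chow MCOPPB, 115, 98.9, 89.2 and 46.3 in DEN/HFD saline, and 305, 69.4 and 114 in DEN/HFD MCOPPB. Among the DEN/HFD livers, DEN/HFD saline 4 and DEN/HFD MCOPPB 2 fell within the range of chow, and DEN/HFD MCOPPB 1 stood far above all others. Its difference for DEN/HFD with MCOPPB was 0.77 ± 0.25 (limma adjusted p = 0.198), and 0.36 (limma adjusted p = 0.486) without DEN/HFD MCOPPB 1. The common effect was 0.56 ± 0.18 (limma adjusted p = 0.126). The cyclins Ccne1, Ccne2 and Ccna2 did not exceed 33.2 normalized counts in any library.

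Mcm10, which helps to start the loaded helicase at the fork, was the licensing gene that stood apart. The gene (ENSMUSG00000026669.14) lies on the minus strand of chromosome 2 from 4989714 to 5012791. It was at 609, 645 and 533 normalized counts in chow saline and 509, 588, 292, 312 and 570 in chow MCOPPB. DEN/HFD saline livers had 447, 629, 686 and 962, and DEN/HFD MCOPPB livers 241, 227 and 220. The 3 DEN/HFD MCOPPB livers were below the other 12 and lay close together, while chow MCOPPB had 3 livers near the saline level and 2 at 292 and 312.

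For Mcm10, MCOPPB against saline gave -1.25 ± 0.24 under DEN/HFD (681 ± 213, n = 4, to 230 ± 10.8, n = 3, 2.97-fold lower). It had the smallest p of the 21 genes in that comparison and did not pass (limma adjusted p = 0.117), where 0.0259% of all genes were called. On chow the difference was -0.38 ± 0.23 (limma adjusted p = 0.674), and the difference between both MCOPPB effects was -0.88 ± 0.33 (limma adjusted p = 0.759). The common MCOPPB effect was -0.80 ± 0.19 (limma adjusted p = 0.0948, with 0.372% of genes called). With 1 weight per library, which gives more variable livers less say, Mcm10 passed under DEN/HFD (-1.24, limma adjusted p = 0.0181). Such weights were no stricter for other genes: over the whole table they gave more calls for DEN/HFD with MCOPPB.

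The direction of Mcm10 was not that of the other helicase genes. Per kb of exon, Mcm10 averaged 64.8 normalized counts, beside 4.39 to 17.3 for Mcm2 to Mcm7, which form the helicase itself and are transcribed in dividing cells. In MCOPPB against saline under DEN/HFD, Mcm2 to Mcm7 had differences of -0.19 to 0.11, all within their SE. Gmnn, the inhibitor of licensing, and Cdt1, the loader that it blocks, were at -0.04 ± 0.22 and 0.09 ± 0.20. Gmnn averaged 66.4 normalized counts per kb of exon, close to Mcm10. Cdt1, with a mean of 19.2 normalized counts, overlaps Gm20388 on the same strand, with a mean of 105, so its value is uncertain.

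Among the helicase subunits, Mcm2 was at 109, 11.2 and 11.9 normalized counts in chow saline, 5.81, 94.0, 34.5, 12.1 and 5.34 in chow MCOPPB, 10.5, 23.2, 40.0 and 27.4 in DEN/HFD saline, and 26.4, 22.6 and 24.6 in DEN/HFD MCOPPB. Its 2 highest values were from chow livers, and the largest of its 4 differences was -0.19 ± 0.33. Mcm5 was at 11.4, 14.3 and 12.3 in chow saline, 6.02, 32.8, 46.1, 41.1 and 13.7 in chow MCOPPB, 11.4, 22.9, 32.1 and 10.4 in DEN/HFD saline, and 4.87, 11 and 20.1 in DEN/HFD MCOPPB. It was high in 3 of 5 chow MCOPPB livers and low in the other 2, with a difference of -0.34 ± 0.21 for DEN/HFD with MCOPPB (limma adjusted p = 0.557).

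Mcm7 was at 84.6, 28.4 and 77.6 normalized counts in chow saline, 65.0, 41.2, 103, 44.3 and 27.5 in chow MCOPPB, 108, 62.0, 165 and 72.6 in DEN/HFD saline, and 132, 90.7 and 49.2 in DEN/HFD MCOPPB. The groups overlapped, with a common effect of DEN/HFD of 0.37 ± 0.18 (limma adjusted p = 0.295). Mcm7 overlaps Cops6 and Ap4m1 on the other strand, whose means were 471 and 124 normalized counts, so part of its reads could be theirs if strand was not used. Mcm3, Mcm4 and Mcm6 had common effects of 0.42 ± 0.24, 0.27 ± 0.14 and 0.10 ± 0.16, and none passed.

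Pcna, the sliding clamp of the polymerases, had the highest level per length of the 44 genes, at 108 normalized counts per kb of exon. Pcna was at 225, 312 and 210 in chow saline, 203, 215, 248, 253 and 387 in chow MCOPPB, 290, 309, 249 and 224 in DEN/HFD saline, and 177, 301 and 277 in DEN/HFD MCOPPB. The groups overlapped throughout, and its differences ran from -0.08 ± 0.20 to 0.09 ± 0.20. Pcna is also used in DNA repair, so its transcript does not mark S phase alone.

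Rrm1, the large subunit of ribonucleotide reductase, was at 57.7, 84.3 and 29.1 normalized counts in chow saline, 81.3, 94.8, 101, 88.1 and 70.5 in chow MCOPPB, 163, 90.7, 67.2 and 36.6 in DEN/HFD saline, and 125, 115 and 183 in DEN/HFD MCOPPB. With MCOPPB the DEN/HFD livers lay above the chow livers, while with saline the diets overlapped. The common effect was 0.37 ± 0.16 for DEN/HFD (limma adjusted p = 0.251) and 0.41 ± 0.16 for MCOPPB (limma adjusted p = 0.561). Rrm2, the small subunit that is limiting in S phase, averaged 75.8 ± 12.2, 77.8 ± 29.2, 95.4 ± 35.3 and 118 ± 4.53 in the 4 groups, with a common effect of DEN/HFD of 0.28 ± 0.14 (limma adjusted p = 0.308).

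Tk1, the thymidine kinase of S phase, was at 113, 157 and 35.6 normalized counts in chow saline, 228, 150, 107, 327 and 161 in chow MCOPPB, 81.2, 97.9, 54.7 and 222 in DEN/HFD saline, and 106, 70.0 and 62.2 in DEN/HFD MCOPPB. Its 2 highest livers were from chow MCOPPB, and all DEN/HFD MCOPPB livers lay below that group, the nearest at 106 beside 107. The difference for DEN/HFD with MCOPPB was -0.78 ± 0.30 (limma adjusted p = 0.290), and MCOPPB on chow gave 0.65 ± 0.30 (limma adjusted p = 0.546). Tk1 overlaps Afmid on the other strand, a gene of hepatocytes with a mean of 778 normalized counts, so its value is uncertain. Tyms, the thymidylate synthase, had differences of -0.27 to 0.10 in the 4 group contrasts.

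**Figure D4:**
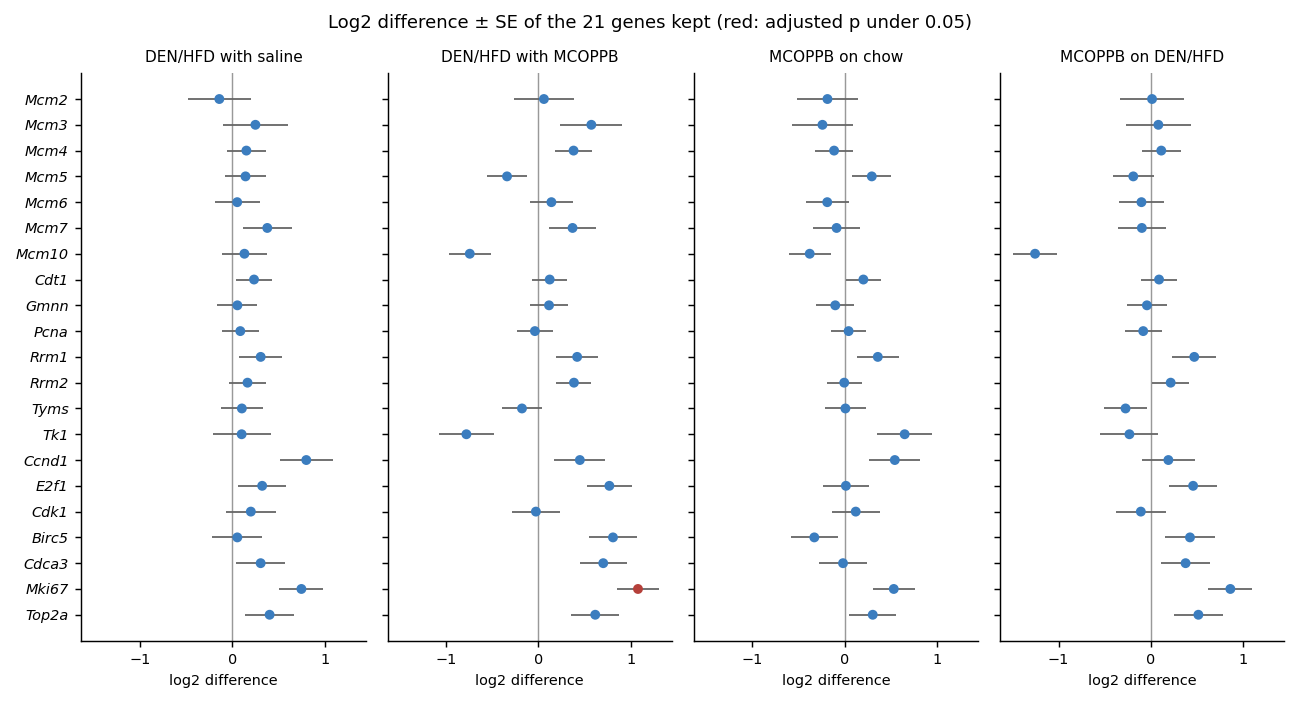
Log2 difference (points) with SE (bars) of the 21 genes kept, for DEN/HFD against chow (with saline, with MCOPPB) and MCOPPB against saline (on chow, on DEN/HFD); the only red point (adjusted p under 0.05) is Mki67 for DEN/HFD with MCOPPB. For DEN/HFD with saline 20 of 21 points lie to the right of 0, and for MCOPPB on DEN/HFD Mcm10 lies farthest to the left at -1.25.

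Over the 21 genes, differences of DEN/HFD were mostly positive and small. The counts are descriptions, since 5 of the 21 were kept through DEN/HFD livers. With saline, 20 of 21 differences were positive, all but Mcm2, with a median of 0.17 on the log2 scale, beside 51.4% positive and a median of 0.01 over all 11568 genes. Their sizes were small: limma called none of the 21 and 0.0519% of all genes, and 2 of 21 (Mki67 and Ccnd1, 9.52%) had an unadjusted p under 0.05, beside 10.96% of all genes. On leaving out any 1 library the count was 16 to 20, 18 of them without DEN/HFD saline 4 and 16 without DEN/HFD saline 1. With MCOPPB, 15 of 21 differences of DEN/HFD were positive (median 0.37), beside 49.4% of all genes. Of the 21, 7 (33.3%) had an unadjusted p under 0.05, beside 12.3% of all genes: Mki67, Top2a, Birc5, Cdca3 and E2f1 higher, and Mcm10 and Tk1 lower. For the common effect 16 of 21 were positive (median 0.27), beside 49.6% of all genes. The 8 with an unadjusted p under 0.05 (38.1%, beside 16.7% of all genes) were all higher, namely Mki67, Top2a, Cdca3, Birc5, E2f1, Ccnd1, Rrm1 and Mcm7. Of these 8, Mki67, Top2a, Cdca3 and Birc5 were kept through DEN/HFD livers. The common effect is made from the same libraries as both contrasts.

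Differences of MCOPPB lay on both sides of 0. On chow 11 of 21 differences were positive (median 0.01), none was called (0.32% of all genes were), and 2 (9.52%, beside 9.06% of all genes) had an unadjusted p under 0.05, Mki67 and Tk1. Under DEN/HFD 12 of 21 were positive (median 0.08), none was called, and 2 (9.52%, beside 4.74% of all genes) had an unadjusted p under 0.05, Mki67 higher and Mcm10 lower. For the difference between both MCOPPB effects, limma called none of the 21 and 0.0692% of all genes, with 1 gene (4.76%, beside 5.90% of all genes), Mcm10, at an unadjusted p under 0.05.

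Other genes of the cycle, from lists chosen by function, were read beside these. Of 112 such genes in 7 lists, 69 were kept, and limma called 1, Cdkn1a, in any comparison. The call was made for DEN/HFD with MCOPPB and for the common effect of DEN/HFD. In these, 0.571% and 1.32% of all genes were called. Cdkn1a encodes p21, the p53-induced inhibitor of cyclin-dependent kinases. It was at 12.6, 43.4 and 17.0 normalized counts in chow saline, 0, 15.1, 13.5, 13.4 and 9.92 in chow MCOPPB, 76.0, 32.8, 65.0 and 12.6 in DEN/HFD saline, and 67.7, 115 and 195 in DEN/HFD MCOPPB. The 3 DEN/HFD MCOPPB livers were above all chow livers, and DEN/HFD saline 4 was again within the chow range. Only 1 chow liver, at 43.4, reached the filter level of 22.5, so Cdkn1a was kept for testing through DEN/HFD livers.

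Cdkn1a rose in the same contrast as Mki67, by 1.53 ± 0.27 for DEN/HFD with MCOPPB (10.4 ± 6.10 to 126 ± 64.3, limma adjusted p = 0.0152). As for Mki67, the filter itself favours a higher level of Cdkn1a under DEN/HFD. The common effect of DEN/HFD was 0.96 (limma adjusted p = 0.0491), and it passed in 2 of 15 fits that left out 1 library (adjusted p 0.00948 to 0.155). The call with MCOPPB was lost without DEN/HFD MCOPPB 2 (adjusted p = 0.0569) or DEN/HFD MCOPPB 3 (adjusted p = 0.163), both from limma. It was also lost with the first RIN label as covariate, where no gene of the whole table was called in this contrast. Of the other inhibitors, Cdkn1b, which encodes p27, had a common effect of 0.50 ± 0.18 (limma adjusted p = 0.173), and Cdkn2d was at 0.26 ± 0.18 for DEN/HFD with MCOPPB (limma adjusted p = 0.607). Cdkn2a, which encodes p16, did not exceed 8.02 normalized counts and was not tested.

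Stmn1, a destabiliser of microtubules in dividing cells, had the smallest p among 14 kept of 35 further mitotic genes. It was at 61.3, 98.5 and 106 normalized counts in chow saline, 51.3, 58.4, 42.1, 74.7 and 57.8 in chow MCOPPB, 221, 80.6, 107 and 53.7 in DEN/HFD saline, and 148, 156 and 152 in DEN/HFD MCOPPB. With MCOPPB the DEN/HFD livers lay well above the chow livers (0.83 ± 0.22, limma adjusted p = 0.0958), and with saline they overlapped. Of this list 11 of 14 differences were positive for DEN/HFD with MCOPPB (median 0.17), beside 49.4% of all genes. For DEN/HFD with saline 9 of 14 were positive (median 0.13), beside 51.4% of all genes. Cenpa, the histone of centromeres, was at -0.49 ± 0.18 for DEN/HFD with saline (limma adjusted p = 0.311), and Spc25, a kinetochore subunit, at 0.36 ± 0.16 for the common effect (limma adjusted p = 0.270).

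Among 18 kept of 24 further genes of DNA synthesis, 12 differences were positive for the common effect of DEN/HFD (median 0.09). This compares with 49.6% positive over all genes, and none of the 18 was called. Fen1, the flap nuclease of lagging-strand synthesis, was at 0.45 ± 0.16 (limma adjusted p = 0.152) and Rpa2, a subunit that coats single-stranded DNA, at 0.32 ± 0.13 (limma adjusted p = 0.220). Dnmt1, the maintenance methyltransferase, was at -0.52 ± 0.23 for MCOPPB on chow (limma adjusted p = 0.513). Of 13 further licensing genes 5 were kept, and Dbf4, the activator of the licensing kinase, had the smallest p (-0.40 ± 0.19 for MCOPPB on chow, limma adjusted p = 0.549).

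Of 12 kept genes for E2F, pocket and MuvB proteins, 11 had a positive difference for MCOPPB on chow (median 0.15, beside 50.1% of all genes). For MCOPPB under DEN/HFD 9 were positive (median 0.08, beside 49.3% of all genes). For the common effect of DEN/HFD 8 were positive (median 0.07, beside 49.6% of all genes). None was called. Lin9, a core MuvB subunit, was at 0.34 ± 0.16 for the common effect of DEN/HFD (limma adjusted p = 0.273), and E2f3 at 0.27 ± 0.12 for the common MCOPPB effect (limma adjusted p = 0.759). Of 9 kept genes for G1 cyclins and their kinases, 2 were positive for MCOPPB on chow and 4 for the common effect of DEN/HFD. Ccnh, a subunit of the kinase that activates CDKs, differed most between both MCOPPB effects (1.10 ± 0.31, limma adjusted p = 0.507). Of 6 kept ubiquitin ligase genes, Cdc27, a core subunit of the anaphase ligase, was at 0.88 ± 0.37 for DEN/HFD with MCOPPB (limma adjusted p = 0.330). This rested on 1 liver, DEN/HFD MCOPPB 1, at 1139 normalized counts beside 97.0 to 246 in the other 14.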

How the data were processed

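RNA of 15 livers, 1 library per mouse, was sequenced with a directional kit, per the labels. The authors deposited 1 table of 54281 genes with variance-stabilised log2 values. Per the submitters' processing notes the authors used Trimmomatic, STAR 2.7.0e, HTSeq, DESeq2 and GRCm38/mm10, and the settings are not given in the sources used here. The lowest value, 5.49, stands for 0 reads, and the deposited log2 values were turned back to normalized counts by inverting the transformation. Whole reads were not recovered (15.3% to 45.2% of values under 20 reads came out within 0.01 of a whole number), so no count model was used and depths (median 15.0 M) are estimates.

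Gene names came from GENCODE (54107 IDs found). Genes at least 1 log2 unit above the lowest value in 3 or more libraries (11568) were tested with limma 3.58.1 in R 4.3.3, with 4 group means (11 residual degrees of freedom), a mean-variance trend and Benjamini-Hochberg adjustment at 0.05 over all of them. Effects common to both diets or treatments came from an additive fit. The fit was tested on simulated data. Members given in full were those called, the up to 5 with the smallest p in a contrast, and 1 or more per role. From other lists up to 3 genes with the smallest p were open to naming. The members and lists were chosen with earlier results of these data known. Replicates are separate mice by the labels. Alternatives were no filter or a filter of 8 libraries, quantile normalization, log2(normalized count + 1), only the groups compared, no trend, library weights, RIN as covariate, a replicate block and leaving out each library.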

Additional observations from a re-analysis of the deposited data

Results flagged for a closer look

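Ccnd1 in chow MCOPPB 3, at 319 normalized counts, stood apart from the other 4 livers of its group (150 to 182). On the variance-stabilised log2 scale its gap to the nearest was 0.762 of the range of the group, above the critical value of 0.71 for 5 samples. Of 28 sets of 1 gene in 1 group tested in this way it was the only one, and chance flags about 1 in 20. Only chow MCOPPB (5 livers) and DEN/HFD saline (4 livers) were tested in this way. Chow saline and DEN/HFD MCOPPB, with 3 livers each, were not.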

How the results depend on the processing

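Of 344 comparisons of a count or median of the 44 genes with an alternative, 320 stayed the same. That means an equal number called, or a median within 0.217 log2 units of the main one. Of the rest, 17 had fewer called, 5 had more, and 2 medians moved further. The direction of a median was not part of this rule. For DEN/HFD with MCOPPB, the number called was 1, and 0 with no filter, 0 with the filter of 8 libraries (where Mki67 was not tested), 0 on log2(normalized count + 1), 0 with either RIN label as covariate, 2 with library weights (Mki67 and Mcm10), and 0 to 1 on leaving out 1 library. Over all genes the count in this contrast was 66, and 0 with the first RIN label and 285 with library weights. Mki67 was at 1.08 with no filter (limma adjusted p = 0.0817), 2.65 on log2(normalized count + 1) (limma adjusted p = 0.208) and 1.05 with the second RIN label (limma adjusted p = 0.0867). For the common effect of DEN/HFD, 1 was called, and 0 with the filter of 8 libraries, 0 with the first RIN label and 0 to 2 on leaving out 1 library. For the common MCOPPB effect none was called, and 1 with library weights and 0 to 1 on leaving out 1 library. For MCOPPB on DEN/HFD 1 was called with library weights. On log2(normalized count + 1) the median of the 21 genes was 0.43 for DEN/HFD with saline and 0.61 for the common effect, a scale that does not shrink low counts. Apart from the filter, the cause of these changes was not tested. Counts of positive differences, and the alternatives for Cdkn1a, were added after seeing the data.

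Replicate numbers are shared by the groups. Of 19 pairs of libraries with the same number, 5 had correlated deviations over 0.1 (mean -0.03, beside 0.01 for 64 other pairs), so the numbers only name the animals. With a replicate block 0 of the 44 genes were called for DEN/HFD with MCOPPB (Mki67 0.98, limma adjusted p = 0.223), and for the common effect Mki67 stayed called (limma adjusted p = 0.0296).

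Depth limits the mitotic genes most: 1 read was worth 0.746 to 1.59 normalized counts, so values under about 5 rest on a few reads, and 23 of the 44 genes could not be tested. The 2 RIN labels disagree, groups hold 3 to 5 mice, and DEN and HFD were given together.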
